A study of Mus musculus with 6 samples.

Results

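The basal layer keratins Krt5, Krt14 and Krt15 were followed in back skin of mouse embryos, as the 3 rows with those gene names among 55401 rows of the deposited count table. The libraries came from 6 embryos at stage E15.5, of which 3 carried the label control and 3 the label Prmt5 cKO, a conditional knockout of the arginine methyltransferase gene Prmt5 in the epidermis, per the series title. Each library was made from the back skin of 1 embryo and held epidermis and dermis together, per the labels. The Cre driver, the Prmt5 alleles, the genotype of the controls, the strain and the sex of the embryos are not named in the labels, beyond the tag CRECT that the submitters put beside Prmt5 in the name of the comparison. All 3 keratins passed the filter on low counts.

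Keratins are the intermediate filament proteins of epithelia, and a filament forms only when a type I keratin pairs with a type II keratin. Krt5 is the type II keratin of the basal layer of stratified epithelia, the layer that holds the dividing cells and sits on the basement membrane. Krt14 is its main type I partner, and Krt15 is a further type I keratin of basal cells, which in adult mouse skin also marks the hair follicle bulge. When a keratinocyte leaves the basal layer, transcription of Krt5 and Krt14 falls and the suprabasal pair Krt1 and Krt10 takes their place. In humans, mutations of KRT5 or KRT14 cause the blistering disease epidermolysis bullosa simplex.

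The genes lie in both keratin clusters of the mouse genome. Krt5 (ENSMUSG00000061527.7) lies on chromosome 15 from 101707070 to 101712898, and the type I genes lie on chromosome 11, Krt14 (ENSMUSG00000045545.8) from 100203162 to 100207548 and Krt15 (ENSMUSG00000054146.8) from 100131758 to 100135928, all on the minus strand and protein coding (GRCm38, GENCODE M21). Because ratios between keratins are compared here, a stretch of 90 coding bases is shown around the longest run that Krt14 and Krt15 share, since reads from such stretches are the ones a counting step could assign to the wrong gene. It was read from the GENCODE M21 transcripts and covers coding bases 655 to 744 of Krt14. Capitals mark bases that differ from Krt14.
Krt14: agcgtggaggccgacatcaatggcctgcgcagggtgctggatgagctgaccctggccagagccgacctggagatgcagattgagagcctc
Krt15: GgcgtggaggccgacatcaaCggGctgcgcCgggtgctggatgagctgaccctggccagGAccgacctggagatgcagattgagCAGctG
Krt16: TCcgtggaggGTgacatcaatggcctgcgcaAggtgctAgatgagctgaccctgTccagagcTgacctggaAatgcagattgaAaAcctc
Krt17: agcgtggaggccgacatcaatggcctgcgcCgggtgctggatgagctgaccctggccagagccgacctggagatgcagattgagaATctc
In this stretch Krt15 matches Krt14 at 80 of 90 bases, Krt16 at 79 and Krt17, a type I keratin of placodes, hair follicles and stressed epidermis, at 87. Over the whole aligned coding sequence Krt14 and Krt15 share 67.8% of bases with no identical run longer than 28, whereas Krt14 and Krt16 share 83.4% with an identical run of 134. Krt5 and its neighbour Krt6a share 76.6% with a run of 140. Of all 100-base windows of the transcripts, 0 of 1601 in Krt15, 46 of 1599 (2.88%) in Krt14 and 50 of 2098 (2.38%) in Krt5 occur in another gene, which is Krt16 for Krt14 and Krt6a or the gene model Gm5478 for Krt5. At 50 bases the shares are 0.666% for Krt15, 14.4% for Krt14 and 8.52% for Krt5. Whether reads in shared stretches were split between genes is not stated by the labels. The antisense gene Gm44323 overlaps Krt5 and had 0 counts in all 6 libraries.

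The 250 bases before the Krt5 start are shown as the promoter of the only type II member, because Trp63, the p53 family factor that drives Krt5 and Krt14 in basal cells, is among the genes measured further on. They are from the RefSeq promoter table on GRCm38.p6, chr15:101712906-101713155, minus strand. Capitals mark a match to a 10-base motif that is only a part of a full p53 family binding site.
Krt5 promoter: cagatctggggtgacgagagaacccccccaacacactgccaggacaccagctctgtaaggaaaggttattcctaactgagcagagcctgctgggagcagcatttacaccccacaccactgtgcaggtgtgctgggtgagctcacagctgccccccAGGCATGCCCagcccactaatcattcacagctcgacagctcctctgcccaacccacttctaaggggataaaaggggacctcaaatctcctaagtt
The match is the only one in the window on either strand and begins 95 bases before the start. The same motif occurs in 7.13% of 32851 windows of this length, so its presence describes the sequence and is not a measured binding site. On both strands the window holds no TATAAA (in 12.4% of all windows), no GGGCGG (32.7%), no GCCNNNGGC (13.7%), no TGANTCA (6.75%) and no CCACCC (28.1%). Only these patterns were searched, so a near match such as the ATAAAA close to the end of the window was not counted.

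Library totals lay between 35667634 and 66122667 counts. Prmt5 itself measured 69.7, 40.1 and 67.9 CPM (counts relative to TMM-scaled library size) in the controls and 27.1, 30.7 and 26.8 CPM in Prmt5 cKO. Control 2 was the lowest control, and still above each mutant. The log2 fold change of Prmt5 by edgeR was -1.07 (adjusted p 0.00292).

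All 3 basal keratins were lower in Prmt5 cKO skin by different amounts, except that scaling the libraries to pan-epithelial genes, described further on, put Krt5 higher and ended the call of Krt14. Krt15 fell most (5.51-fold), Krt14 less (2.28-fold) and Krt5 least (1.58-fold). Of all 19227 genes tested, 19.6% were called lower and 35.9% were called in either direction, at an adjusted p under 0.05 by edgeR's quasi-likelihood test with Benjamini-Hochberg adjustment. A fall in a bulk sample can come from fewer cells of a type or from less RNA per cell, and these cannot be told apart here.

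Krt5 measured 2489.6, 2240.25 and 2326 CPM in controls 1 to 3 and 1371, 1479 and 1626 CPM in Prmt5 cKO 1 to 3. Every control was above every mutant, and the highest mutant stood well below the lowest control. The means were 2352 ± 127 and 1492 ± 128 CPM (SD, n = 3 each). By edgeR the log2 fold change was -0.66 ± 0.07 (SE) and the adjusted p 0.000191. Of all genes tested, 10.5% had a lower log2 fold change.

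Krt14 measured 1124, 929 and 1019 CPM in the controls and 407, 440.2 and 502 CPM in Prmt5 cKO. The groups were far apart again, with control 2 the lowest control and mutant 3 the highest mutant. Means were 1024 ± 97.7 and 449.6 ± 48.2 CPM (SD, n = 3 each), the log2 fold change was -1.19 ± 0.09 (SE), and edgeR gave an adjusted p of 3.25e-05. Only 5.5% of the genes tested had a lower log2 fold change.

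Krt15 measured 1089.6, 1116 and 975 CPM in the controls and 179, 198 and 199 CPM in Prmt5 cKO. Its control levels were like those of Krt14, but its mutant levels were all under those of Krt14. Means were 1060.2 ± 75.2 and 192 ± 11.3 CPM (SD, n = 3 each), the log2 fold change was -2.46 ± 0.07 (SE), and edgeR gave an adjusted p of 1.68e-07. Of the genes tested, 2.26% lay lower.

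The 3 genes were steady within groups: the coefficient of variation over 3 libraries lay between 5.39% for Krt5 in controls and 10.7% for Krt14 in Prmt5 cKO. For each of them the exact permutation p, two-sided over the 6 libraries, was 0.1, below which 3 against 3 cannot go. Groups that do not overlap, with Prmt5 cKO lower, were found for 26.6% of all genes tested. In the authors' deposited table the DESeq2 log2 fold changes were -0.64 for Krt5, -1.17 for Krt14 and -2.45 for Krt15. The Sleuth effects in the authors' deposited table, put on the log2 scale, were -0.69, -1.21 and -2.45 in the same order.

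**Figure D1:**
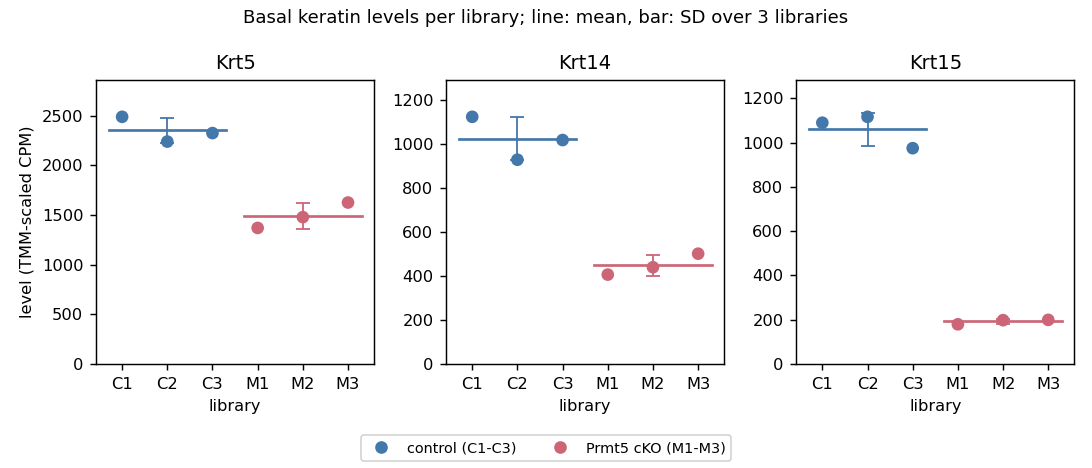
CPM of Krt5, Krt14 and Krt15 in each of the 3 control and 3 Prmt5 cKO libraries, with points for libraries and the mean and SD of each group. Control and mutant points are apart for all 3 genes, and the gap widens from Krt5 (2352 against 1492) to Krt15 (1060.2 against 192).

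In the plot of the members by library, the mutant points of Krt15 lie closest to the axis while its control points stand level with those of Krt14. Levels of different genes are compared per length, as CPM per kilobase of exon. On that scale Krt5 led in controls with 1070.5 ± 57.7, ahead of Krt15 with 600.0 ± 42.6 and Krt14 with 582 ± 55.6 (SD, n = 3). The last pair did not differ beyond their spread in controls. In Prmt5 cKO the order was Krt5 with 679 ± 58.4, Krt14 with 256 ± 27.4 and Krt15 with 109 ± 6.38, and no neighbours overlapped. By this level, among 18638 genes tested that have an annotated length, Krt5 went from rank 27 to 36, Krt14 from 56 to 144 and Krt15 from 53 to 339.

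The ratio of one keratin to another within a library does not depend on how libraries are scaled, and it was compared for each pair. Krt15 fell against both other members, and Krt14 fell against Krt5. Per kilobase, the Krt15 to Krt14 ratio was 0.964, 1.20 and 0.952 in the controls and 0.439, 0.448 and 0.396 in Prmt5 cKO. Thus both genes stood near parity in controls, with control 2 highest, and every mutant had less than the lowest control. The mean went from 1.04 ± 0.137 to 0.427 ± 0.0279 (SD, n = 3). With libraries scaled to Krt14, edgeR gave a log2 change of -1.28 ± 0.16 (SE) and an adjusted p of 2.53e-08 for Krt15, a direction in which 3.3% of all genes were called. In such a fit the reference keratin's own spread enters every gene, and the test counts it as if seen many times. The p-values of such fits are therefore too small as a measure of the spread between embryos.

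The Krt15 to Krt5 ratio was 0.544, 0.620 and 0.521 in controls and 0.163, 0.167 and 0.153 in Prmt5 cKO. It had the widest separation among the 3 pairs, 3.49-fold between means. With libraries scaled to Krt5, edgeR gave -1.81 ± 0.12 (SE), adjusted p 3.85e-08, and called 5.29% of all genes lower. The Krt5 to Krt14 ratio was 1.77, 1.93 and 1.83 in controls and 2.70, 2.69 and 2.59 in Prmt5 cKO. The classical pair therefore moved apart by less, 1.44-fold between means. With libraries scaled to Krt14 the log2 change of Krt5 was 0.53 ± 0.14 (SE), adjusted p 0.0012 by edgeR. That call is in a direction in which 84.9% of all genes were called higher, so a rise against Krt14 is not particular to Krt5. For all 3 ratios the groups did not overlap, and the exact permutation test gave 0.1, the smallest possible. The edgeR p-values of these ratios carry the limit given above. Control 2, the control with the lowest Prmt5, had the highest value of all 3 ratios among controls. Without it, the 3 log2 changes were -1.17, -1.73 and 0.56 in the order given here.

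**Figure D2:**
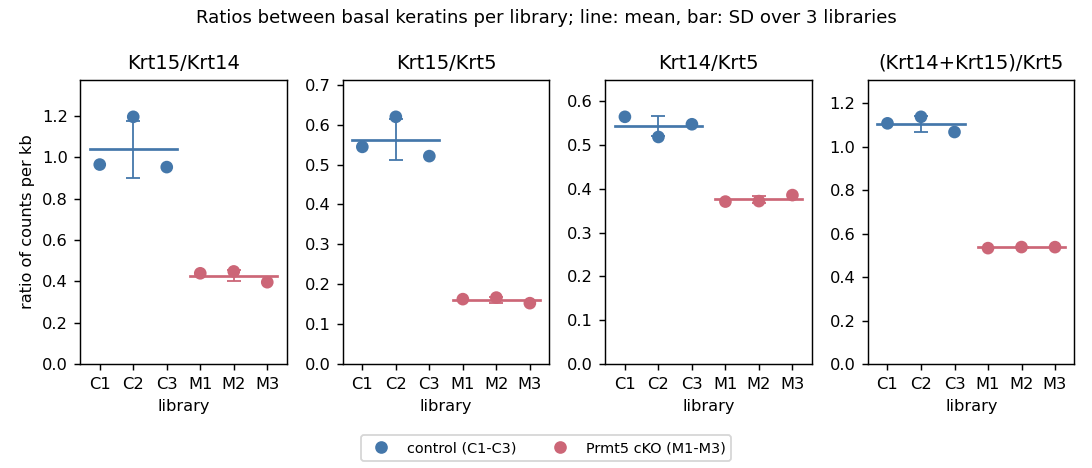
Ratios between the basal keratins in each library, from counts per kilobase of exon, with points for libraries and the mean of each group. Krt15 to Krt14 drops from 1.04 to 0.427, Krt15 to Krt5 from 0.562 to 0.161, and Krt14 to Krt5 from 0.543 to 0.376. The sum of Krt14 and Krt15 to Krt5 drops from 1.105 to 0.537.

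The plot of ratios shows mutant libraries closer to each other than controls are. The amount of type I partner per Krt5 was then summed, a sum chosen after the values were seen. Krt14 and Krt15 together measured 1.11, 1.14 and 1.07 counts per kilobase for each of Krt5 in controls and 0.534, 0.538 and 0.538 in Prmt5 cKO. The mutants were almost identical, and the mean went from 1.10 ± 0.0349 to 0.537 ± 0.00276 (SD, n = 3). These are RNA levels, and protein was not measured.

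Krt17, which can also pair with Krt5, rose. It measured 134, 126 and 128 CPM in controls and 310.4, 312 and 323 CPM in Prmt5 cKO, so the mutants were all above the controls. Its log2 fold change was 1.29 ± 0.05 (SE), adjusted p 4.93e-07 by edgeR, a call made higher for 16.3% of all genes. Against Krt14 its level per kilobase went from 0.144 ± 0.00903 to 0.800 ± 0.0679, and against Krt15 from 0.139 ± 0.0105 to 1.87 ± 0.0906 (SD, n = 3). In Prmt5 cKO there was thus more Krt17 than Krt15. With libraries scaled to Krt14, edgeR gave Krt17 a log2 change of 2.48 ± 0.16 (SE) and an adjusted p of 1.65e-13. With libraries scaled to Krt15 it gave 3.75 ± 0.11 (SE) and 9.42e-10, where 95.8% of all genes were called higher. Both p-values are likewise too small as a measure of the spread between embryos. Adding Krt17 to the type I sum narrowed the shift per Krt5 to 1.18 ± 0.0356 in controls and 0.837 ± 0.0175 in Prmt5 cKO. With Krt19, a type I keratin of simple epithelia and embryonic skin, added as well it was 1.32 ± 0.057 and 1.11 ± 0.0402. In both sums the groups did not overlap, and the mutants were still lower.

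The other keratins give the frame for these ratios. The table held 54 keratin rows, of which 7 had no count and 16 had counts but were not tested. Of the 31 tested, 9 rose, 16 fell and 6 were not called, beside 16.3% higher and 19.6% lower among all genes. Of the 19 with a group mean of at least 10 CPM, members included, 4 rose, 12 fell and 3 were not called. The risers were Krt17, the simple epithelial pair Krt8 (log2 fold change 0.95) and Krt18 (0.93), and Krt19 (0.32, adjusted p 0.0361 by edgeR). The suprabasal keratins fell furthest, with Krt1 at -8.09, Krt10 at -6.07 and Krt77 at -9.64, so the members fell far less than the keratins that replace them. Krt78 was at -5.39, Krt13 at -3.68, Krt23 at -2.63 and Krt80 at -1.57. Krt16 was at -0.80 (adjusted p 0.0176 by edgeR) and Krt6a at -0.34 (0.0142), and both turned positive when scaled to pan-epithelial genes (0.23 and 0.68). The keratins that were not called were Krt4 (0.21), Krt6b (-0.28) and Krt7 (-0.0019). The calls of Krt16, Krt19 and Krt6a were lost when 1 library was left out, Krt16 without control 1 or 3 (adjusted p up to 0.0727 by edgeR), Krt19 without control 1 or 3 or mutant 2 or 3 (up to 0.113) and Krt6a without control 1 or mutant 1 (up to 0.0529). Krt6a also lost its call with upper-quartile scaling (adjusted p 0.0582 by edgeR). Krt4 was called higher without control 2 (0.47), and Krt6b lower without mutant 3 (-0.48).

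**Figure D3:**
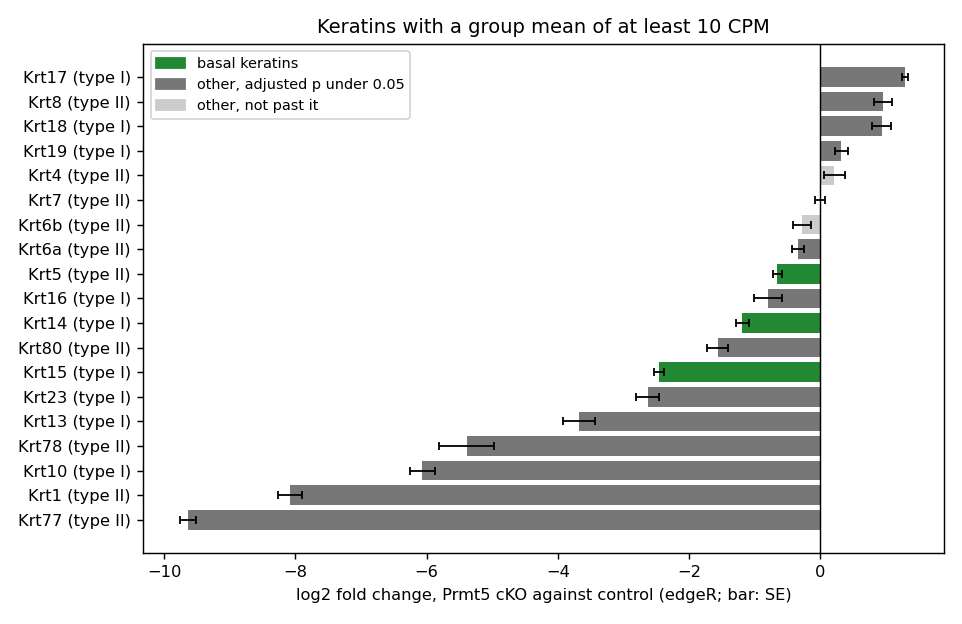
Log2 fold change (Prmt5 cKO against control, edgeR, with SE) of the keratins with a group mean of at least 10 CPM, the 3 basal keratins marked. Krt5 at -0.66 and Krt14 at -1.19 lie between the risers, led by Krt17 at 1.29, and the suprabasal keratins, down to Krt77 at -9.64.

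The plot of keratin changes places Krt15 nearer to Krt23 than to its basal partners. As shares of all keratin counts per kilobase, the 3 members together went from 25.3% ± 1.47 to 49.7% ± 1.63 (SD, n = 3), although each of them fell. Krt5 went from 12.0% ± 0.624 to 32.4% ± 1.04 and Krt14 from 6.53% ± 0.135 to 12.2% ± 0.659, whereas Krt15 went from 6.77% ± 0.883 to 5.19% ± 0.079. The suprabasal keratins Krt1, Krt2, Krt10 and Krt77 went from 65.2% ± 3.20 to 2.88% ± 0.497, and all keratins together from 2.20% ± 0.220 to 0.439% ± 0.0348 of all counts. The rise in share is thus a share of a smaller whole.

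Without the 4 suprabasal keratins in the whole, the Krt5 share was 35.4%, 32.8% and 35.8% in controls and 32.9%, 32.4% and 34.6% in Prmt5 cKO. The groups overlapped, and the means were 34.7% ± 1.64 and 33.3% ± 1.18 (exact permutation p = 0.3, two-sided, n = 3 each). Krt14 was lower on that base, 18.9% ± 1.62 against 12.5% ± 0.716, and so was Krt15, 19.4% ± 0.838 against 5.34% ± 0.0571 (SD, n = 3 each). Krt17 took 2.70% ± 0.0899 and then 9.996% ± 0.478, Krt19 4.76% ± 0.654 and 8.996% ± 0.575, and Krt4 9.60% ± 2.58 and 16.9% ± 0.982. For Krt14, Krt15, Krt17, Krt19 and Krt4 the groups did not overlap on that base. The ratio of all type I to all type II keratins without the suprabasal ones was 0.915 ± 0.0211 in controls and 0.637 ± 0.0103 in Prmt5 cKO, with groups that did not overlap.

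**Figure D4:**
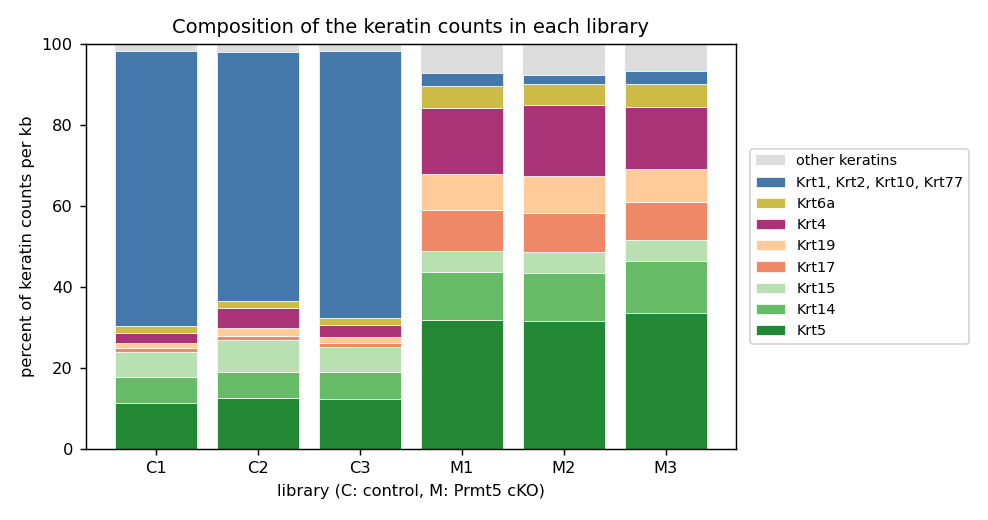
Composition of the keratin counts per kilobase in each library, as percent of all keratins, the suprabasal ones included. Krt15 shrinks from 6.77% to 5.19% and Krt5 grows from 12.0% to 32.4%, while Krt1, Krt2, Krt10 and Krt77 together shrink from 65.2% to 2.88%.

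The plot of composition shows larger shares of Krt17, Krt19 and Krt4 beside the smaller share of Krt15 in the mutants. Markers of some other cell types moved with the falls. The summed level of 15 pan-epithelial genes was 1482 to 1674 CPM in controls and 783 to 800.0 CPM in Prmt5 cKO, with 12 of them lower, St14 (log2 fold change 0.70) and Marveld2 (0.53) higher and Spint1 (-0.16) not called. All 10 fibroblast genes rose (sum 37310 to 45270 CPM in controls, 58610 to 75110 CPM in Prmt5 cKO), as did all 10 muscle genes (3093 to 4179 CPM, then 7330 to 7668 CPM). Of 8 endothelial genes 7 rose, the other being Cldn5 (0.32). Of 8 leukocyte genes 4 rose (C1qa, C1qc, Mrc1 and Tyrobp), of 8 melanocyte genes 2 rose (Sox10 and Mlana), and of 5 Merkel cell genes Krt20, Isl1 and Piezo2 rose while Atoh1 and Sox2 fell. Krt20 (0.246 CPM in controls, 0.710 CPM in Prmt5 cKO), Atoh1 (0.700 and 0.0507 CPM) and Sox2 (2.37 and 0.480 CPM) were at low levels. Among all genes 16.3% rose and 19.6% fell, so the count of melanocyte genes that rose is near the background. With upper-quartile scaling 7 leukocyte and 4 melanocyte genes were higher, but 4514 of all 19227 genes were then called higher, in place of 3139. No marker of these lists was at 0 in every library. The part of these cells in the falls of the members was not tested.

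Each keratin was also measured per epithelial RNA. Krt5 counts divided by the summed pan-epithelial counts were 1.55, 1.34 and 1.55 in controls and 1.74, 1.88 and 2.11 in Prmt5 cKO, higher in every mutant. Krt14 gave 0.701, 0.556 and 0.677, then 0.518, 0.558 and 0.652, and the groups overlapped. Krt15 gave 0.679, 0.668 and 0.648, then 0.228, 0.251 and 0.259, so it was lower in every mutant by this measure too. With libraries scaled to that list, edgeR gave log2 fold changes of 0.37 for Krt5 (adjusted p 0.00423), -0.16 for Krt14 (0.194) and -1.43 for Krt15 (5.96e-07). On that scale the median of all genes was 1.02, and 81.4% of genes were called higher and 3.93% lower. Relative to the median gene the members stood at -0.65, -1.18 and -2.45, as without that scaling. The list's own genes fell unequally, so it is a scale with its own error and no count of cells.

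**Figure D5:**
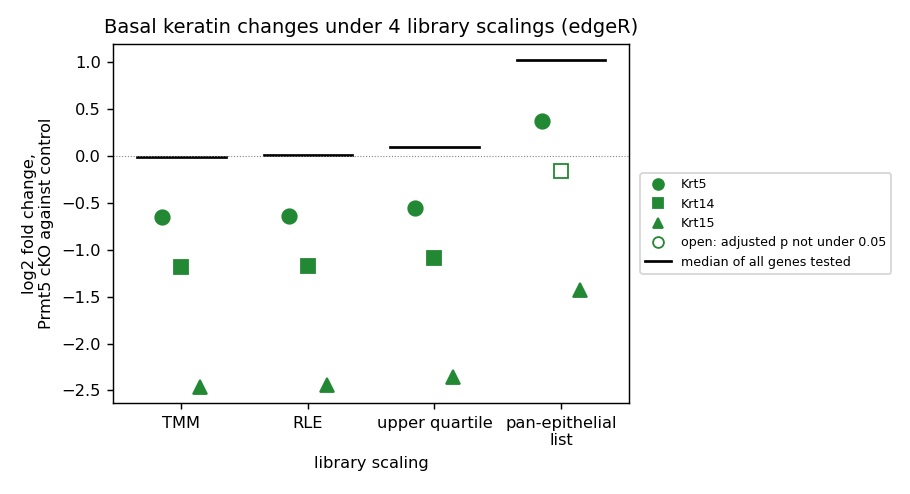
Log2 fold changes of Krt5, Krt14 and Krt15 by edgeR with TMM, RLE, upper-quartile and pan-epithelial scaling, beside the median of all genes tested. Krt15 is below 0 under all of them, whereas scaling to the pan-epithelial list puts Krt5 at 0.37 and Krt14 at -0.16.

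In the plot of scalings the 3 keratins shift together, because a scaling moves all genes by about the same amount. Genes around the basal keratins were described from lists that were chosen with earlier results of these data known. Of 16 other basal layer genes 9 fell, 3 rose and 4 were not called, beside 19.6% lower and 16.3% higher among all genes. Scaled to the pan-epithelial list 12 of the 16 were higher and 3 lower, beside 81.4% higher and 3.93% lower among all genes. Their median log2 fold change was -0.63, beside a median of -0.0075 over all genes. With pan-epithelial scaling their median was 0.39, beside 1.02 over all genes. The hemidesmosomal collagen Col17a1 went from 319 ± 9.82 to 37.3 ± 3.00 CPM (-3.10) and Dlk2 was at -2.04. Itgb1, the integrin beta chain that basal cells share with dermal cells, rose (0.36), as did Dst (0.19, lost without control 2 or 3 or mutant 1, adjusted p up to 0.0767 by edgeR). Those not called were the hemidesmosomal integrin chains Itga6 (-0.09) and Itgb4 (0.06), the cadherin Cdh3 (-0.09) and Egfr (0.10). With upper-quartile scaling Itgb4 (0.17) and Egfr (0.20) were called higher.

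Among 14 transcription factors known to act on keratin genes or epidermal fate, 11 fell, 0 rose and 3 were not called, beside 19.6% lower and 16.3% higher among all genes, with a median of -1.40. By DESeq2, by limma-voom and at an unadjusted p under 0.05 by edgeR 0 rose as well, but without control 2 Tfap2b was called higher (0.35, adjusted p 0.0117 by edgeR). Scaled to the pan-epithelial list, Tfap2b, Runx1 and Notch1 were called higher, and 9 were lower because Cebpa and Cebpb lost their calls. Among all genes 81.4% were higher and 3.93% lower on that scale. The median of the factors was then -0.37, beside 1.02 over all genes. Trp63, singled out after its values were seen, fell from 244 ± 5.23 to 67.1 ± 4.39 CPM (log2 fold change -1.86, adjusted p 2.06e-07 by edgeR). Its log2 fold change lay between those of Krt15 and Krt14, and these differences were not tested. Ovol1, a repressor active as basal cells leave the cell cycle, was at -2.77, Gata3 at -1.93 and Klf4, a factor of barrier formation, at -1.32. Tfap2b (0.19), Runx1 (-0.21) and Notch1 (0.0041) were not called, though Runx1 was called lower without mutant 3 (-0.27, adjusted p 0.0328 by edgeR).

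Genes for 9 proteins that tie keratin filaments to junctions or to other structures were described by their RNA. Of these genes 6 fell, 2 rose and 1 was not called, beside 19.6% lower and 16.3% higher among all genes. Their median was -1.13. The desmosomal plakin Dsp went from 2552 ± 153 to 610.2 ± 14.9 CPM (-2.06), Pkp1 was at -2.60, Evpl at -2.52 and Ppl at -1.47. The hemidesmosomal linkers Plec (0.24, adjusted p 0.0495 by edgeR) and Dst (0.19) rose, and Plec lost its call without control 2 or 3 or mutant 1 or 2 (up to 0.15), with no filter (0.0578) and with a replicate block (0.0522). Tchp (0.29), which encodes a keratin-binding protein, was not called. Scaled to the pan-epithelial list, 4 of the 9 were lower and 3 higher, beside 3.93% lower and 81.4% higher among all genes. Their median was then -0.11, beside 1.02 over all genes, with Fam83h (-0.11) and Eppk1 (0.10) no longer called.

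The genes most like each keratin were those with the smallest root mean square difference over the 6 libraries, in log2 CPM centred on the control mean, among 12907 genes. For Krt5 they were Lmo1 (0.0361), Cobl (0.0508), Zfp36 (0.0521), Plekhf2 (0.0521) and Rtn4rl1 (0.0574). For Krt14 they included Mindy3 (0.0539), Emb (0.0662), Septin5 (0.0794) and Sfn (0.0821). For Krt15 they were Sytl1 (0.09), the water and glycerol channel Aqp3 (0.0916), the grainyhead-like factor Grhl1 (0.102), Sema4a (0.114) and Fam57a (0.117). No keratin was among the 5 most like another member: Krt14 was the gene at rank 3681 for Krt5 (difference 0.377) and at rank 451 for Krt15 (0.908). Seen from Krt14, Krt5 was at rank 646 and Krt15 at rank 7932. By the difference Krt14 was therefore nearer to Krt5 than to Krt15, and ranks for different members are not comparable.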

How the data were processed

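RNA from the back skin of 3 controls and 3 mutants was sequenced as stranded mRNA libraries, per the labels' protocols. STAR, StringTie and DESeq2 with the build mm10 are named, without versions, in the submitters' processing notes; the sources used here do not give the counting step or the annotation release. Per gene, the authors deposited counts in whole numbers, with log2 fold changes and p-values of DESeq2 and with natural log effects and q-values of Sleuth, per the file headers. The natural log scale was read from the values: over 462 genes the median ratio of the Sleuth effect to the deposited log2 fold change was 0.697, against 0.693 for the natural log of 2. A DESeq2 1.42.0 fit of the deposited counts gave the authors' log2 fold changes within 0.01 for 100% of 30615 genes. Totals ran from 35667634 to 66122667, and more genes held a count of 3 than of 2 in every library, so a count may stand for less than 1 read.

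Genes were kept by filterByExpr (19227 of 55401), libraries were scaled by TMM, and edgeR 4.0.16 in R 4.3.3 compared the groups by its quasi-likelihood test with no covariate, Benjamini-Hochberg adjustment and a threshold of 0.05. For ratios the same test was fitted across all genes with the log count of the reference keratin as the offset. Because the reference's own spread then enters every gene, these p-values are too small as a measure of the spread between embryos. Ratios and shares used counts per kilobase of union exon (GENCODE M21, GRCm38, which held 98.1% of the identifiers). Single values were compared by an exact two-sided permutation test in SciPy 1.17.1. The edgeR steps were tested on simulated data. The members and lists were chosen with earlier results of these data known. Lists covered other basal genes, factors, keratin linkers, pan-epithelial genes and 6 other cell types. Genes were named by rule: the members, keratins of at least 10 CPM in a group, the 2 most expressed and 2 most changed members of a list, the 5 genes most like each member with a mean log2 CPM of at least 2, and members wherever a count was 5 or fewer; 2 genes that the rule names are not reported here. Alternatives were RLE, upper-quartile and pan-epithelial scaling, no filter, DESeq2, limma-voom (limma 3.58.1), a replicate block and leaving out each library. The alternatives for genes other than the members, and the fits of Krt17 against the members, were added after the data were seen.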

Additional observations from a re-analysis of the deposited data

How the results depend on the processing

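Of 84 alternative values of the 3 log2 fold changes and the 6 ratios, 82 kept direction and side of the threshold. For the ratios, the side of the threshold rests on p-values that are too small, as stated above. The other 2 came from scaling to the pan-epithelial list, which put Krt5 at 0.37 and Krt14 at -0.16 (adjusted p 0.194 by edgeR), called 16408 genes (15652 higher, 756 lower) in place of 6906 (3139 and 3767), and moved the median gene to 1.02. Upper-quartile scaling moved the split to 4514 higher and 2719 lower. Leaving out each library gave -0.72 to -0.59 for Krt5, -1.27 to -1.09 for Krt14, -2.51 to -2.42 for Krt15, -1.34 to -1.17 for Krt15 against Krt14, -1.86 to -1.73 for Krt15 against Krt5, 0.50 to 0.56 for Krt5 against Krt14, and 5705 to 5897 genes called. The change in keratin share was 20.3 points for Krt5 (23.9 without division by length, -1.37 without the suprabasal keratins), 5.65 for Krt14 (-6.33 without the suprabasal keratins) and -1.58 for Krt15 (-0.33 and -14.1). Leaving out each library gave 19.7 to 20.7, 5.27 to 5.85 and -1.88 to -1.07 points. These sign changes follow from the smaller whole.

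Among 53 other named genes, scaling to the pan-epithelial list turned Krt16 to 0.23, Krt6a to 0.68, Krt6b to 0.75, Krt7 to 1.02, Itga3 to 0.29, Itga6 to 0.94, Lama3 to 0.32, Lamb3 to 0.28, Cdh3 to 0.94, Jag2 to 0.47, Fermt1 to 0.21, Runx1 to 0.82, Eppk1 to 0.10 and the median of the other basal genes to 0.39. This scaling raised every gene by about the shift of the median. It also ended the calls of Bcam, Fam83h, Cebpa and Cebpb and added calls of Krt4, Itgb4, Egfr, Tfap2b, Notch1 and Tchp; the other 30 kept direction and call. Upper-quartile scaling ended the call of Krt6a and added Itgb4, Egfr and Tchp. Plec lost its call with no filter (adjusted p 0.0578 by edgeR) and with the replicate block (0.0522), under which the other 52 kept theirs. With a replicate block the members were at -0.66, -1.19 and -2.46, all still called, and 6098 genes were called. The same-numbered libraries did not deviate together (correlations -0.149, -0.0596 and -0.111), so no pairing by number was seen. Deviations from means of 3 libraries cannot exclude such a pairing. With 3 embryos a group, an exact test cannot go below 0.1, and the share of epidermis in each library was not measured.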
